A study of Mus musculus with 9 samples.

Results

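A set of 8 genes that are used as epithelial or cancer stem markers was followed in RNA from sorted pancreatic ductal adenocarcinoma (PDAC) cells: 5 surface proteins (Cd24a, Cd44, Prom1, Epcam and Cd9), the kinase Dclk1 and the RNA binding proteins Msi1 and Msi2. These 8 of the 47643 genes in the count files were chosen by name, and all 8 had the 100 or more reads needed to be tested. KPF mice carry Pdx-Flp and Trp53 frt/+ together with the R26 alleles FSF-CreER and Dual, and gave 6 libraries of GFP+Yap+ cells. KPYYF mice, which carry the same alleles and also Yap flox/flox, gave 3 libraries of Tm+Yap− cells. Mice of both genotypes received a tamoxifen (TAM) diet. The Pdx1 promoter drives Flp, so the tumors begin in pancreatic cells of that lineage. GFP is lost and Tm gained when CreER recombines the reporter, so genotype, Yap status and reporter color changed together and cannot be told apart. The Tm+ cells came from nodules that grew back after Yap deletion, and the comparison asks how their stem and epithelial markers differed from those of KPF cells. KPYYF cells from before Yap deletion are not among the libraries, so a marker lost and a marker already low cannot be told apart. KPF libraries 4504h and 4504s bear 1 mouse number, and the study's methods give 1 age range for all its mice, of both sexes, but no age for these groups.

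Stem markers in PDAC are mostly proteins by which cells with a high ability to seed tumors were first sorted. CD44, CD24 and EpCAM have been used together for this purpose, and CD133, the product of Prom1, separately. None of them is specific to stem cells: EpCAM, CD24 and prominin-1 are also carried by differentiated ductal epithelium, CD44 and CD9 by many mesenchymal and immune cells, and Dclk1 by tuft cells. The values here are RNA from many cells of a sorted population. They do not give the protein at the surface or how many cells carried a marker, and fewer cells with a marker and less RNA per cell cannot be told apart.

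Between 8116539 and 9635514 reads per library were counted on genes. Counts are given as CPM, read counts scaled to an equal library size by TMM, and 3 reads equal 0.292 to 0.437 CPM. This limit covers counting error only, because PCR copies were not marked. Yap1, the gene deleted in KPYYF cells, ranged from 41.8 to 151 CPM in KPF and from 0.712 to 7.12 CPM in KPYYF libraries (adjusted p = 0.0159). The epithelial keratins Krt7, Krt8, Krt18 and Krt19 were detected in all 9 libraries. Their summed level was 2421 to 5752 CPM in KPF and 388 to 1172 CPM in KPYYF libraries, without overlap. KPF 4504s (19921 CPM) and KPYYF 4449 (5907 CPM) were high in 6 acinar enzyme genes, against 68.6 to 992 CPM elsewhere. KPF 4601 (7920 CPM) and KPF 4504s (2478 CPM) were high in 10 immune genes, against 400.2 to 702 CPM elsewhere. The 8 fibroblast genes overlapped between groups, with 419 to 5542 CPM in KPF and 933 to 2823 CPM in KPYYF libraries. The 4 Schwann cell genes summed to 20.4 to 191 CPM in KPF and 9.73 to 12.9 CPM in KPYYF libraries, without overlap, and most of this was Mbp, while Sox10 had 0 reads in every library. Their part in the results was not tested. Each marker is also given without KPF 4504s, KPF 4601 and KPYYF 4449 together, the 3 libraries high in acinar or immune genes.

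**Figure D1:**
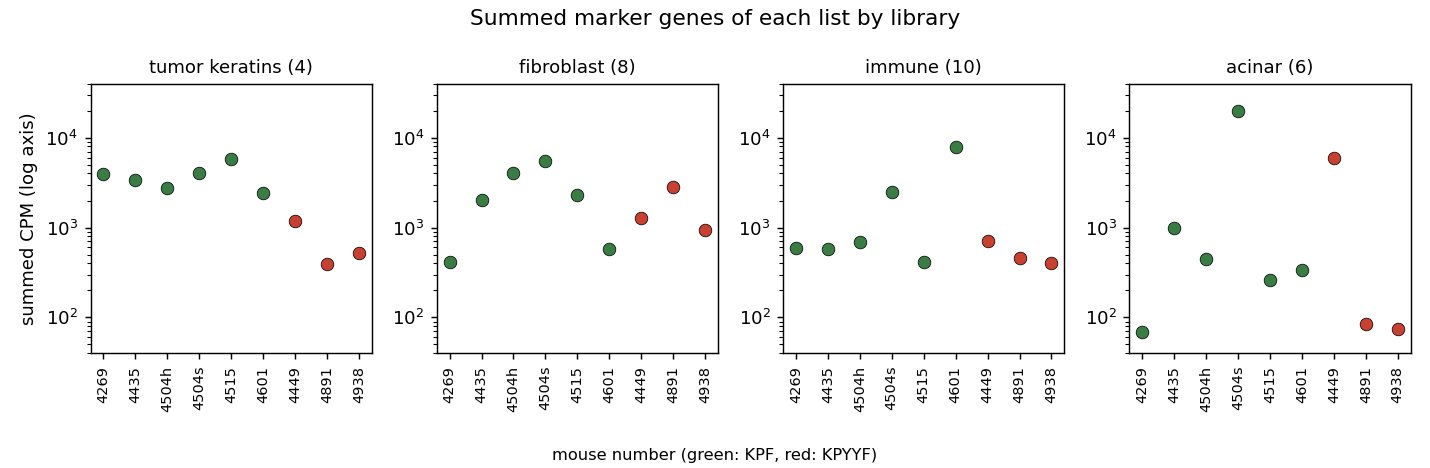
Summed CPM (log axis) of 4 tumor keratin, 8 fibroblast, 10 immune and 6 acinar genes in each library, by mouse number, with KPF in green and KPYYF in red. The keratin sum separates the groups, while KPF 4504s and KPYYF 4449 stand high in acinar genes and KPF 4601 in immune genes.

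Promoters of 4 of the surface genes were found in the RefSeq table (GRCm38.p6), and these are shown because their log2 fold changes ran from -2.56 (Prom1) over -1.41 (Epcam) and -0.66 (Cd44) to 0.13 (Cd9). Each sequence runs from 250 bases before to 50 bases after the annotated start, 5′ to 3′ on the strand of the gene. Capitals mark matches on either strand to TGANTCA, the AP-1 motif, and to CAGGTG, an E-box bound by Zeb and Snai factors. GGAATG, the motif of the Yap partners TEAD, was searched in the same way. The motifs do not share bases in these sequences.
Prom1, chr5:44101687-44101986, minus strand: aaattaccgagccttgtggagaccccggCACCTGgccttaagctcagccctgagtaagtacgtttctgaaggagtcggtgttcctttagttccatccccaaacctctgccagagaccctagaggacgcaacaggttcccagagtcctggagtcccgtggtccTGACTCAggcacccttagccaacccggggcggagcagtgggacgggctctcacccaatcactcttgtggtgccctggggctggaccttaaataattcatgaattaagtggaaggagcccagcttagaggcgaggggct
Epcam, chr17:87635729-87636028, plus strand: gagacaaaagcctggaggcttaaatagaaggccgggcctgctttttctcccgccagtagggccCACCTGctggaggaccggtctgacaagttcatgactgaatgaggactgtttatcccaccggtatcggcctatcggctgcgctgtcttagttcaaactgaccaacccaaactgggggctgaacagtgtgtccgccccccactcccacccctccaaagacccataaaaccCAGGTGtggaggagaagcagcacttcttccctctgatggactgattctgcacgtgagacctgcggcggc
Cd9, chr6:125494711-125495010, minus strand: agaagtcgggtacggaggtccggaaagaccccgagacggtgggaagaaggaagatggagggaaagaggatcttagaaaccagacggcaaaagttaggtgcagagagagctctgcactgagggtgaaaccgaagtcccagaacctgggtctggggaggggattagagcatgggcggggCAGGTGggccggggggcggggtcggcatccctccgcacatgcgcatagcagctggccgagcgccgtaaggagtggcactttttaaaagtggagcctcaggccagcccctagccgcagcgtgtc
Cd44, chr2:102901616-102901915, minus strand: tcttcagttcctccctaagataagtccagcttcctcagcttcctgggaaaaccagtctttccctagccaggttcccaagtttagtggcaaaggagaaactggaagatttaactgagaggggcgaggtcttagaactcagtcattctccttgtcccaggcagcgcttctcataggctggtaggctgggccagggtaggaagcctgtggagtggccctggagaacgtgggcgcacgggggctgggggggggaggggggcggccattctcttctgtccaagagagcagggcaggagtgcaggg
The Prom1 window shown held 1 AP-1 match and 1 E-box, the Epcam window 2 E-boxes, the Cd9 window 1 E-box, and the Cd44 window none of the motifs. A further Prom1 promoter, chr5:44094719-44095018, is not shown and held 1 AP-1 match and 0 E-boxes. Entries were found for 6 of the 8 genes, with 10 promoters between them. Those of Msi2 overlap, so they are not separate sequences. The AP-1 motif was in 3 of the 10, of Prom1 and Dclk1, and in 7.81% of all 32851 promoters in the table. The E-box was in 4 of the 10, of Cd9, Dclk1, Epcam and Prom1, and in 20.2% of all promoters. TEAD letters were in 0 of the 10 and in 14.7% of all. These counts describe the letters in these windows and say nothing of what binds there.

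Of the 8 genes, only Cd24a fell with adjustment over all genes, and none rose. With edgeR's quasi-likelihood test over 14105 genes, adjusted p values under 0.05 were found for 0.794% of genes in the lower and 0.305% in the higher direction. An unadjusted p under 0.05 was found for 2 of the 8 genes, Cd24a and Prom1, against 16.1% of all genes tested. The rule of the study's methods, an unadjusted p under 0.05 and more than 2-fold, was set on DESeq2 and applied here to edgeR. By this rule 2 of 8 were lower (Cd24a and Prom1), against 9.2% of all genes tested, and 0 were higher, against 4.2%. With DESeq2 4 were lower by it, as given further below. Of edgeR's log2 fold changes, 6 were negative (53.3% of all genes) and 2 positive. Their median was -1.20, against -0.07 over all genes tested. Cd24a was also the 1 member with every KPYYF library below every KPF library, which held for 5.18% of genes, and none had every KPYYF library above (3.92% of genes).

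**Figure D2:**
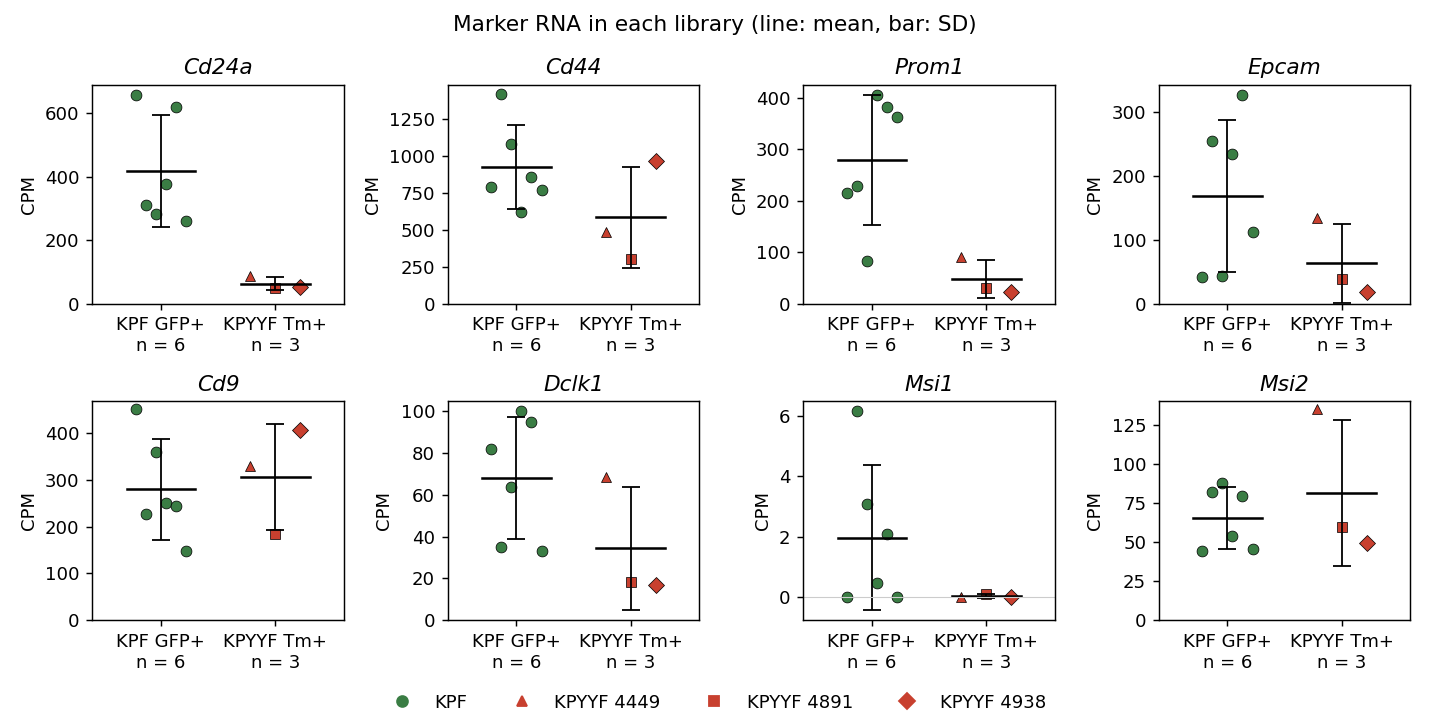
CPM of the 8 genes in each library of KPF GFP+ (n = 6) and KPYYF Tm+ cells (n = 3), with the mean as a line and the SD as a bar. Cd24a separates the groups, and KPYYF 4449 (triangle) is the highest KPYYF library for Cd24a, Prom1, Epcam, Dclk1 and Msi2.

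Cd24a (ENSMUSG00000047139) encodes a small, heavily glycosylated protein held at the surface by a lipid anchor. It lies on chromosome 10 from 43578284 to 43584265 on the plus strand (GRCm38). KPF libraries had 262 CPM (4601) to 658 CPM (4269), with a median of 344 CPM. The KPYYF libraries had 86.6 (4449), 50.2 (4891) and 52.5 CPM (4938). The highest KPYYF library was thus well below the lowest KPF library, and each library held at least 459 Cd24a reads. The means were 418 ± 176 CPM (SD, n = 6) and 63.1 ± 20.4 CPM (SD, n = 3), and Cd24a fell 6.63-fold, a log2 fold change of -2.73 (standard error 0.41, 95% interval -3.61 to -1.85, adjusted p = 0.0141). The two-sided exact permutation test over 84 splits gave p = 0.0119, the smallest it can give. Without KPYYF 4891 or KPYYF 4938 the adjusted p was 0.0553 and 0.0604, with log2 fold changes of -2.59 and -2.61. Over 1000 reads of Xist, which silenced X chromosomes transcribe, were found in all 3 KPYYF libraries but in 3 of the 6 KPF libraries. Those 3 were 4435, 4504h and 4504s, of which 4504h and 4504s bear 1 mouse number. Among these 6 libraries the log2 fold change was -2.35 (adjusted p = 0.0389). Without the 3 libraries high in acinar or immune genes it was -3.16 (adjusted p = 0.0161). The keratin sum moved in the same direction, and its part in the result was not tested.

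Prom1 (ENSMUSG00000029086) encodes prominin-1, a pentaspan glycoprotein of membrane protrusions. It is on chromosome 5 from 43993620 to 44102032 on the minus strand. KPF libraries had 82.4 CPM (4504h) to 405 CPM (4504s), with a median of 296 CPM, and KPYYF libraries had 89.9 (4449), 30.1 (4891) and 22.2 CPM (4938). The groups overlapped only in that KPF 4504h was below KPYYF 4449. The other library with that mouse number, 4504s, was the highest of all, so the pair spanned the whole KPF range. The log2 fold change was -2.56 (standard error 0.59, 95% interval -3.85 to -1.27, adjusted p = 0.0631), close to that of Cd24a but with an adjusted p above the threshold. The exact permutation p was 0.0238. The adjusted p was 0.0291 without KPF 4504h, 0.0236 without KPYYF 4449 (log2 fold change -3.42) and 0.035 with the libraries 4504h and 4504s summed. Without the 3 libraries high in acinar or immune genes it was 0.0366. It was 0.190 without KPYYF 4891, 0.170 without KPYYF 4938, 0.103 to 0.112 without KPF 4435, KPF 4504s or KPF 4515, and 0.238 among the 6 libraries with over 1000 Xist reads. In all, Prom1 passed in 6 of 18 alternatives, and an unadjusted p under 0.05 was found in all 9 fits that each left out 1 library.

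Epcam (ENSMUSG00000045394), the epithelial cell adhesion molecule, binds its like on neighboring cells and also claudin-7. It is on chromosome 17 from 87635979 to 87651129 on the plus strand. KPF libraries had 41.7 CPM (4269) to 327 CPM (4515), with a median of 173 CPM. KPYYF libraries had 134 (4449), 37.9 (4891) and 18.5 CPM (4938). Among KPF libraries, 4269 and 4504h were low, near KPYYF 4891, so Epcam had a 7.83-fold range within the control group. The log2 fold change of -1.41 had a standard error of 0.82 and a 95% interval of -3.23 to 0.40 (adjusted p = 0.444, exact permutation p = 0.179). A difference was not detectable against this spread, and the interval holds both a large fall and no change. Without KPYYF 4449 the log2 fold change was -2.58 (adjusted p = 0.193).

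Cd44 (ENSMUSG00000005087) is the main receptor for hyaluronan and exists in many splice forms. It is on chromosome 2 from 102811141 to 102901665 on the minus strand. Its reads come from the 3′ end and do not tell the splice forms apart. KPF libraries had 621 CPM (4504s) to 1418 CPM (4435), with a median of 824 CPM. KPYYF libraries had 486 (4449), 302 (4891) and 962 CPM (4938). Libraries 4449 and 4891 were below all KPF libraries, and 4938 was within the KPF range. The log2 fold change was -0.66 (standard error 0.37, 95% interval -1.46 to 0.14, adjusted p = 0.411, exact permutation p = 0.0952). Without KPYYF 4938 it was -1.23 (unadjusted p = 0.00748, lower by the rule of the methods, adjusted p = 0.195), and without KPYYF 4891 it was -0.35 (adjusted p = 0.729).

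Cd9 (ENSMUSG00000030342) encodes a tetraspanin, which gathers integrins and other partners into membrane domains. It is on chromosome 6 from 125460266 to 125494791 on the minus strand. KPF libraries had 148 CPM (4601) to 452 CPM (4269), with a median of 247 CPM. KPYYF libraries had 330 (4449), 183 (4891) and 406 CPM (4938), all within the KPF range. The log2 fold change was 0.13 (standard error 0.36, 95% interval -0.64 to 0.90, adjusted p = 0.909, exact permutation p = 0.75), and its sign turned to -0.13 without KPYYF 4938. The interval leaves room for a change of up to 1.86-fold upward.

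Dclk1 (ENSMUSG00000027797) encodes a kinase that binds microtubules. It is on chromosome 3 from 55242364 to 55539068 on the plus strand. KPF libraries had 33.1 CPM (4601) to 99.9 CPM (4504s), with a median of 72.8 CPM. KPYYF libraries had 68.3 (4449), 18.3 (4891) and 16.8 CPM (4938). Libraries 4891 and 4938 were below every KPF library, and 4449 was at the level of the KPF libraries. The log2 fold change was -0.98 (standard error 0.53, 95% interval -2.14 to 0.17, adjusted p = 0.395, exact permutation p = 0.107). Without KPYYF 4449 it was -1.96 (adjusted p = 0.0883), and without KPYYF 4891 or KPYYF 4938 it was -0.68 and -0.65.

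Tuft cell genes were listed because Dclk1 marks these cells. Of the 10, only 4 had 100 or more reads. The tuft cell transcription factor Pou2f3 had 74 reads over all libraries and Hmx2 had 0. Trpm5, the tuft cell cation channel, ranged from 0 to 8.19 CPM in KPF and was at 0 reads in the KPYYF libraries. Its KPF median was 0.222 CPM, less than 3 reads, so its fall rests on part of the KPF libraries. By the rule of the methods, 2 of the 4 were lower, Trpm5 and Avil (9.2% of all genes tested). The median log2 fold change was -2.41, or -2.27 with Trpm5 taken at 3 reads per KPYYF library. Avil, an actin regulator named after its values were seen, had 11.2 to 68.1 CPM in KPF and 0.119 to 8.44 CPM in KPYYF libraries, without overlap (-3.01, adjusted p = 0.161). Ptgs1, a cyclooxygenase, was the 1 gene of the list higher by the rule of the methods, with 24.5 to 91.8 CPM in KPF and 67.7 to 185 CPM in KPYYF libraries (log2 change 1.25, adjusted p = 0.153). The summed level of the 10 genes, most of which in KPYYF libraries was Ptgs1, was 53.5 to 145 CPM in KPF and 69.0 to 195 CPM in KPYYF libraries. It was lowest among KPYYF libraries in 4449, where Dclk1 was highest.

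Msi1 (ENSMUSG00000054256) and Msi2 (ENSMUSG00000069769) encode the Musashi proteins, which bind messenger RNAs and control their translation in progenitor cells. Msi1 is on chromosome 5 from 115429599 to 115455698 on the plus strand and Msi2 on chromosome 11 from 88339382 to 88718513 on the minus strand. Msi1 was near the limit of detection. It had 60 reads in KPF 4435, 30 in 4504h, 19 in 4515, 4 in 4504s and 0 in 4269 and 4601. In KPYYF libraries it had 1 read in 4891 and 0 in 4449 and 4938. Pooled over libraries, the KPF level was 55.3 times the KPYYF level, with an exact counting interval of 9.73 to 2210. That interval takes no account of the spread between libraries, in which 2 of the 6 KPF libraries were also at 0. edgeR's test gave an adjusted p of 0.318, and the exact permutation test p = 0.167.

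Msi2 had 44.5 CPM (4269) to 87.5 CPM (4504h) in KPF libraries, with a median of 66.4 CPM. KPYYF libraries had 135 (4449), 59.7 (4891) and 49.1 CPM (4938). KPYYF 4449 was the highest of all 9 libraries, and the others were within the KPF range. The log2 fold change was 0.31 (standard error 0.38, 95% interval -0.50 to 1.13, adjusted p = 0.751, exact permutation p = 0.583). It turned to -0.27 without KPYYF 4449.

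**Figure D3:**
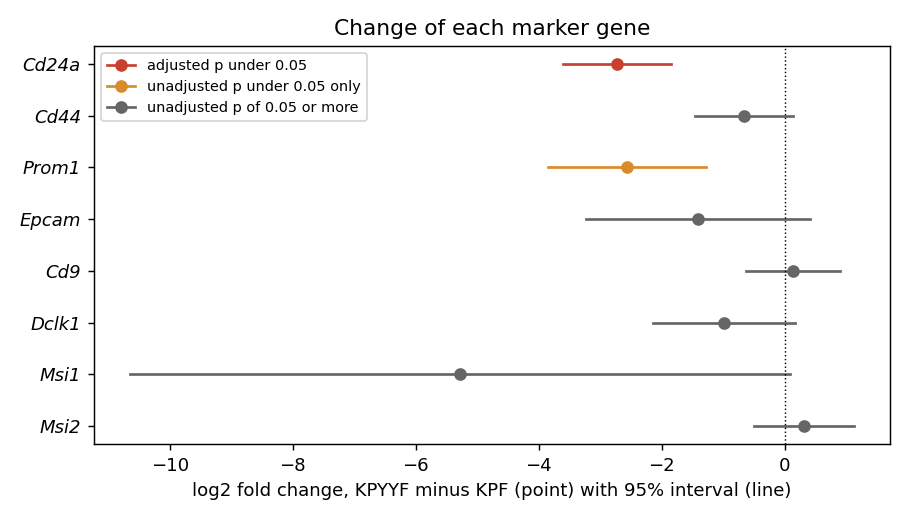
Log2 fold change of each gene, KPYYF minus KPF (point), with its 95% interval from edgeR's fit (line). Only the interval of Cd24a (red, adjusted p under 0.05) and that of Prom1 (orange, unadjusted p under 0.05) lie wholly below 0.

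The 3 KPYYF libraries did not rank alike from gene to gene. KPYYF 4449 was the highest of the 3 for 5 genes (Cd24a, Prom1, Epcam, Dclk1 and Msi2), 4938 for Cd44 and Cd9, and 4891 for Msi1 by its 1 read. KPYYF 4449 also had the highest keratin sum of the 3 (1172 CPM, against 388 and 516 CPM) and the most acinar RNA. Without this library, the log2 fold changes of Prom1, Epcam and Dclk1 were each more negative, as given above. Leaving it out moved Cd24a only to -3.03 (adjusted p = 0.0151). With all 3 libraries high in acinar or immune genes left out, the log2 fold change was -0.69 for Cd44 (adjusted p = 0.505), -2.54 for Epcam (0.246) and -1.94 for Dclk1 (0.0843). Under the same setting it was -0.09 for Cd9 (adjusted p = 0.951), -0.40 for Msi2 (0.688) and, with its few reads, -5.36 for Msi1 (0.389).

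**Figure D4:**
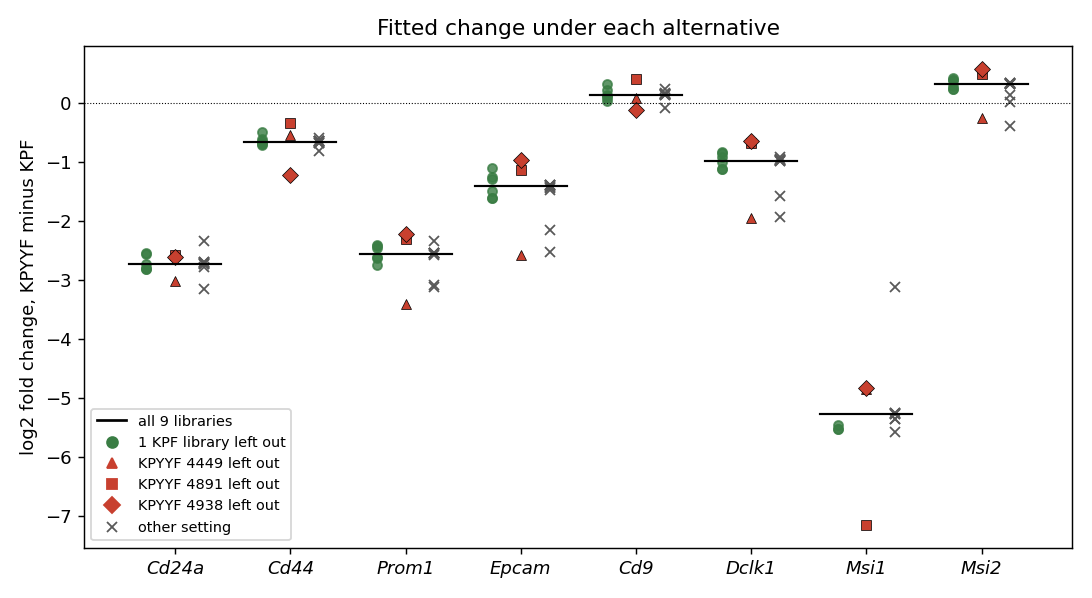
Fitted log2 fold change of each gene, KPYYF minus KPF, with all 9 libraries (line), with 1 KPF library (circle) or 1 named KPYYF library left out (triangle, square, diamond), and under other settings (cross). Of the single libraries, KPYYF 4449 moves Epcam, Dclk1 and Msi2 most when left out and 4938 moves Cd44 most, and Cd9 and Msi2 pass 0.

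Across the 9 libraries the 8 genes did not form a single pattern. The correlation of log2 CPM was 0.87 between Cd24a and Prom1 and 0.80 between Prom1 and Epcam. Within the 6 KPF libraries it was 0.27 for Cd24a and Prom1 and 0.71 for Prom1 and Epcam, so the first rested mainly on the difference between groups. Cd24a and Cd44 had a correlation of 0.50 over all libraries and -0.30 within KPF. For Cd24a and Dclk1 it was 0.77 and 0.71, and for Cd44 and Msi2 -0.02 and 0.72. These are descriptions over few libraries, which share the difference between groups.

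Genes most like each marker over the 9 libraries were found by Pearson's r of log2 CPM, among 8875 tested genes with a mean of at least 10 CPM. For Cd24a they were Lurap1l (0.993), the keratin Krt18 (0.987) and the splicing factor Esrp2 (0.982). For Prom1 they were the complement factor Cfb (0.978), Tmem51 (0.973) and the tight junction protein F11r (0.972). For Epcam they were the potassium channel Kcnk1 (0.964), its binding partner Cldn7 (0.960) and Wnt7a (0.958). For Cd44 they were Ttll7 (0.942), Banp (0.939) and En1 (0.934), and for Dclk1 Rras2 (0.957), Klf6 (0.934) and Slc4a3 (0.923). For Cd9 they were Htra2 (0.940), Pak1ip1 (0.926) and Ssr3 (0.924), and for Msi2 Ccdc77 (0.974), Cdc26 (0.952) and Mbtd1 (0.941). Those of Msi1, Arhgap1 (0.946), Erp44 (0.920) and Spag9 (0.912), rest on the 4 libraries in which it had more than 1 read. Being the highest of so many candidates over 9 libraries, such values can arise without a link between the genes, and none was tested. For markers that differ between the groups, such as Cd24a and Prom1, they also hold that difference.

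Of 18 other epithelial surface genes, 17 had a negative log2 fold change (53.3% of all genes tested), with a median of -1.97, and 2 fell with adjustment. Cdh1, E-cadherin, ranged from 333 to 2105 CPM in KPF and from 94.0 to 245 CPM in KPYYF libraries (log2 change -2.92, adjusted p = 0.0351). Muc1, a membrane mucin, ranged from 40.1 to 710 CPM in KPF and 9.02 to 23.5 CPM in KPYYF libraries (-4.11, adjusted p = 0.0422). Of the 18, 7 were lower by the rule of the methods (9.2% of all genes tested) and 0 higher. The count past adjustment was 0 without KPF 4269, KPF 4435, KPF 4504s, KPYYF 4891 or KPYYF 4938, 1 without KPF 4601, and 4 without KPF 4504h or KPYYF 4449.

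Mesenchymal surface genes had a median of 0.15 over 13 genes, with 0 past adjustment in edgeR's test. By the rule of the methods 2 were higher, Pdgfra and Thy1 (4.2% of all genes tested), and 1 was lower, Eng (9.2%). Pdgfra, a growth factor receptor of mesenchymal cells, had the highest value, 2.90 (adjusted p = 0.105), with 4.38 to 42.0 CPM in KPF and 24.3 to 285 CPM in KPYYF libraries. Thy1 and Eng were named after their values were seen. Thy1 had 1.46 to 57.7 CPM in KPF and 65.2 to 267 CPM in KPYYF libraries, without overlap (1.92, adjusted p = 0.251). Cdh11, a cadherin of mesenchymal cells, had the lowest value, -2.67 (adjusted p = 0.443).

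Other stem markers were taken from 20 genes, and 0 passed adjustment in edgeR's test. By the rule of the methods 6 were lower (9.2% of all genes tested) and 1 higher (4.2%). The median was -0.82, against -0.07 over all genes tested. Lrig1, an inhibitor of growth factor receptors, was the highest, with 14.4 to 60.2 CPM in KPF and 55.2 to 64.0 CPM in KPYYF libraries (log2 change 1.10, adjusted p = 0.219). The aldehyde dehydrogenases Aldh1a1 and Aldh1a3, the receptor Procr, the tetraspanin Tspan8 and the drug transporter Abcb1a were among the lower genes and were named after their values were seen. Aldh1a3 ranged from 28.8 to 135 CPM in KPF and 7.22 to 19.9 CPM in KPYYF libraries, without overlap (-1.94, adjusted p = 0.120). Procr ranged from 35.1 to 76.0 CPM in KPF and 18.8 to 27.3 CPM in KPYYF libraries, without overlap (-1.39, adjusted p = 0.0933). Bmi1, a Polycomb protein also named afterward, had 21.9 to 38.3 CPM in KPF and 42.3 to 63.9 CPM in KPYYF libraries, every KPYYF library above (0.75, adjusted p = 0.257).

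The family of Cd9 was not uniform. Of 26 other tetraspanins, 1 fell with adjustment and 8 were lower by the rule of the methods (9.2% of all genes tested), with 0 higher, and the median was -0.58. The gene that fell was Upk1b, a uroplakin, with 2.04 to 19.6 CPM in KPF libraries and at most 0.109 CPM, 1 read, in a KPYYF library (adjusted p = 0.0277). The count past adjustment was 0 without KPF 4435, KPF 4504s, KPYYF 4891 or KPYYF 4938 and 2 without KPYYF 4449. Tspan8 is counted here and among the stem markers. Tspan11 had the highest value, 1.51 (adjusted p = 0.593). Of 7 partners of Cd9, 2 were lower by the rule (9.2% of all genes tested), and 0 passed adjustment in edgeR's test. Itga3, an integrin subunit that binds laminins, was the lowest, with 49.0 to 109 CPM in KPF and 7.65 to 48.3 CPM in KPYYF libraries (-1.52, adjusted p = 0.156). Adam17, a sheddase, was the highest, with 0.89 (adjusted p = 0.369).

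The genes around Cd44 were the synthases and hydrolases of hyaluronan, other hyaluronan receptors and a further ligand of Cd44. Listed with them were the proteins that link Cd44 to actin, its sheddases and the splicing factors that set its variable exons. Of 18, 17 were tested, with a median of -0.32, and 0 passed adjustment in edgeR's test. The 1 gene lower by the rule (9.2% of all genes tested) was Esrp2, an epithelial splicing factor. It had 8.31 to 34.4 CPM in KPF and 0.437 to 3.09 CPM in KPYYF libraries (-3.62, adjusted p = 0.0643). Esrp1, named after its values were seen, overlapped between groups (-1.12, adjusted p = 0.729). It had 0.0973 to 60.9 CPM in KPF and 3.39 to 31.7 CPM in KPYYF libraries. Has3, a hyaluronan synthase, was the highest with 2.77 (adjusted p = 0.501), from 0 to 6.35 CPM in KPF and 0 to 27.0 CPM in KPYYF libraries. Of the paralogs of the markers, Dclk2 and Dclk3 had under 100 reads, and Prom2 had at most 4.92 CPM in any library (log2 fold change 0.91, adjusted p = 0.874).

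**Figure D5:**
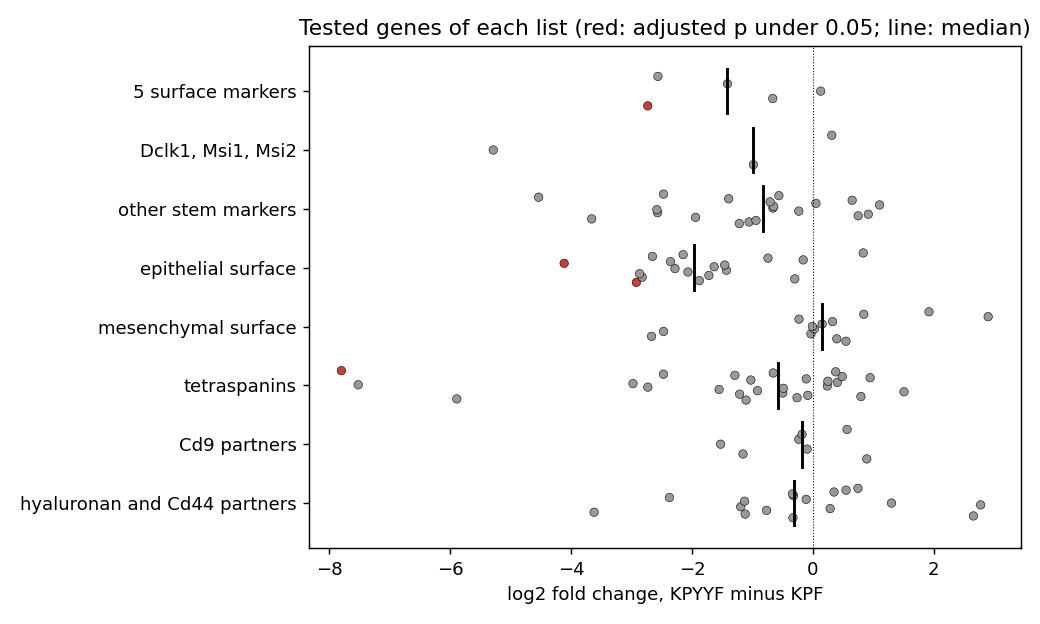
Log2 fold change, KPYYF minus KPF, of each tested gene (point) in 8 lists, with the median as a line and genes with an adjusted p under 0.05 in red. The epithelial surface genes lie mostly to the left of 0, around -1.97, and the mesenchymal surface genes around 0.15.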

How the data were processed

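RNA of FACS-sorted PDAC cells was read from 3′ end libraries (Lexogen QuantSeq Forward, RNAeasy kit, per the labels). The authors deposited raw counts per Ensembl gene, without normalization. The submitters' processing notes name STAR, HTSeq and mm10. Versions and the strand of counting are not given in the sources used here, so reads of overlapping genes on the other strand cannot be told apart. Cd24a and Epcam overlap no other gene. The study's methods instead describe BeadChips, DESeq2 and a minimum for the summed reads of a gene. Reads without a unique alignment took 43.8 to 53.4% of each file.

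Symbols (47224 of 47643 genes) and positions came from GENCODE M21. The 14105 genes with a sum of at least 100 reads were compared with edgeR 4.0.16's quasi-likelihood test (TMM, robust, no covariates; R 4.3.3), two-sided, and p values were adjusted over all these genes (Benjamini-Hochberg). Standard errors were taken as the log2 fold change over the square root of F. Log2 CPM used a prior count of 2. BLAST 2.17.0 found no other gene's transcript matching the last 500 bases of a marker at 95% identity over 75 bases. For Cd24a and Cd9, the pseudogenes Gm6212 and Cd9-ps came nearest, at 94.4% over 126 and 93.6% over 109 bases. Libraries were taken as separate samples, and where they are not from separate mice, p values measure only the spread between them. No pair was alike within sampling noise.

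The named genes are the 8 markers, genes of each list past adjustment, each list's extremes and the 3 genes most like each marker. Some genes of the lists and part of the genotype are not reported here. The members and lists were chosen with earlier results of these data known. Alternatives were DESeq2 1.42.0, limma 3.58.1 voom with quality weights, other normalizations and filters, the libraries 4504h and 4504s summed, the 6 libraries with over 1000 Xist reads, and each library left out. Leaving out the 3 libraries high in acinar or immune genes together was chosen after seeing the data. The tests were checked on simulated data. A larger share of DESeq2's calls there was false than of edgeR's or voom's. Many of the smaller true changes were missed by edgeR, more than by DESeq2 and fewer than by voom. Figures were drawn with matplotlib 3.10.9.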

Additional observations from a re-analysis of the deposited data

Results flagged for a closer look

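None of the 8 markers had a KPF library that stood apart by Dixon's test. Of the summed cell type lists, 2 did among 17 groups of KPF values tested, where chance flags about 1 in 20. The immune genes summed to 7920 CPM in KPF 4601, whose gap to the next library took 0.725 of the range. The acinar genes summed to 19921 CPM in KPF 4504s, with a gap of 0.954 of the range. KPYYF groups of 3 were not tested. KPF 4601 had the lowest Cd24a, Cd9 and Dclk1 levels of the KPF libraries, and KPF 4504s the highest Prom1 and Dclk1 and the lowest Cd44 level.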

How the results depend on the processing

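Over 18 alternatives, 0 of the 8 markers were higher by either rule. The adjusted p of Cd24a was under 0.05 in 16 of the 18, from 3.13e-09 (DESeq2) to 0.0604, and its log2 fold change ran from -3.16 to -2.35. The count of markers lower with an adjusted p under 0.05 was 1 as reported and 2, Cd24a and Prom1, with DESeq2, with voom, with the 4504 libraries summed and without the 3 libraries high in acinar or immune genes. With each library left out it ran from 0 (without KPYYF 4891 or KPYYF 4938) to 2. By the rule of the methods, 2 were lower as reported. By this rule 4 were lower with DESeq2 (Cd24a, Prom1, Epcam and Msi1), with voom and without the 3 libraries (Cd24a, Prom1, Epcam and Dclk1), and the range with each library left out was 2 to 4, with 4 without KPF 4601 or KPYYF 4449. Cd9 ran from -0.13 (reversed, without KPYYF 4938) to 0.40 with each library left out and reversed to -0.088 without the 3 libraries. Msi2 ran from -0.27 (reversed, without KPYYF 4449) to 0.57 and reversed to -0.40 without the 3 libraries. The other 6 markers kept their direction where fitted. Msi1 fell under 100 reads without KPF 4435, KPF 4504h or KPF 4515 and in the Xist set, and was not fitted there. Of 272 counts over the lists under alternatives, 229 were within 1.5 times the reported count. Of the epithelial surface genes, 2 passed adjustment as reported, 7 with DESeq2, 4 without a filter, 3 with voom and 0 in the Xist set. Of the tetraspanins, 1 passed as reported, 7 with DESeq2 and 0 with voom or with the 4504 libraries summed. DESeq2 called 5 of the other stem markers, 2 mesenchymal surface genes, 1 gene around Cd44, 1 Cd9 partner and 1 tuft cell gene, where edgeR called 0. The cause of these shifts was not tested. With 3 KPYYF libraries, intervals of Cd44, Epcam, Dclk1, Msi1 and Msi2 hold changes of more than 2-fold as well as none. No paired analysis was possible because the labels give mouse numbers, none of them in both groups, and the replicate numbers used here only name the libraries.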

Other observations

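Ratios of reads within a library, chosen after the values were seen, were compared for 3 markers and a gene among those most like each. Cd24a reads were 17.2 to 27.8% of Krt18 reads in the KPF libraries, with a median of 23.0%. In KPYYF libraries 4449, 4891 and 4938 they were 18.8, 20.7 and 19.6%, within the KPF range (two-sided exact permutation test of the log2 ratio, p = 0.357), although both genes fell as levels. Prom1 reads were 32.5 to 70.2% of F11r reads in KPF libraries and 37.7, 41.8 and 31.6% in KPYYF libraries (exact permutation p = 0.155). Epcam reads were 212 to 841% of Cldn7 reads in KPF libraries and 436, 445 and 563% in KPYYF libraries (exact permutation p = 0.690). The partner genes were picked for their likeness over the same 9 libraries, so ratios that stay close follow in part from that choice, and a p above 0.05 does not show that the ratios are equal. Adjusted over the 3 ratios, no p was under 0.05.

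The pair of KPF libraries with mouse number 4504 differed in several markers. Prom1 was at 82.4 CPM in 4504h and 405 CPM in 4504s, Epcam at 43.1 and 234 CPM, and Cd44 at 1080 and 621 CPM. What the letters h and s stand for is not given in the sources used here. Msi1 and Msi2 had a correlation of 0.97 in log2 CPM over the 6 KPF libraries and 0.40 over all 9, where KPYYF 4449 had the highest Msi2 level and 0 Msi1 reads. This pair was picked because its KPF value was the highest among all pairs of the markers. Msi1 had few reads, with 0 in KPF 4269 and 4601 and 4 in 4504s.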
